A study of Homo sapiens with 2 samples.

Results

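The cytosolic ribosomal protein genes code for the protein part of the ribosome that translates nuclear messages. They were examined here for NRF-1 occupancy of their promoters in the human glioblastoma cell line U251. The genes were taken by symbol from a human annotation: coding genes on chromosomes 1 to 22 and X named RPL or RPS followed by a digit, A or P, without the RPS6K kinases and RPS19BP1. The rule found 89 genes among 19756 coding genes, 34 for the small subunit (RPS) and 55 for the large subunit (RPL). Of the 89 genes, 77 were the standard ribosomal proteins, 9 were paralogous copies such as RPL3L and RPL10L, and 3 were read-through genes that join a ribosomal protein gene to its neighbour. The rule used symbols alone and no measured value, but it was chosen with earlier results of these data known.

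The study asked whether loss of AATF, a transcriptional cofactor, alters where NRF-1 sits on chromatin. The cells received either a control siRNA, siControl, or an siRNA against AATF, siAATF #1, and NRF-1 was immunoprecipitated with 1 antibody. Each condition gave 1 list of broad peaks, with 18014 peaks in siControl and 18454 in siAATF, so every value below is from a single list and no difference between the lists could be tested against a spread between replicates. Other limits of the model are that a transient siRNA in 1 cell line was used and that the level of AATF in these cells is not part of the lists.

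Ribosomal protein genes are among the most highly transcribed genes of a growing cell. Most of their messages begin with a C followed by a run of pyrimidines, the terminal oligopyrimidine (TOP) motif, through which growth signals set their translation. NRF-1 is known above all for promoters of nuclear genes of the respiratory chain, and it binds as a dimer to a GC-rich palindrome that usually lies close to transcript starts.

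The NRF-1 core searched here was the 10-base palindrome GCGCATGCGC, read the same on both strands. The following stretches are shown because they hold the matches that most of the strong promoter peaks of these genes share, in both lists. Each is the strand of the gene on hg19, 5′ to 3′, with the core in capitals. RPL10A held it exactly and the other genes shown with 1 mismatch. The stretch of RPL10A is chr6:35436078-35436177 on the plus strand, which ends 1 base before the annotated start and overlaps no annotated exon. The others run from 10 bases before the core to 10 bases after it.
RPL10A: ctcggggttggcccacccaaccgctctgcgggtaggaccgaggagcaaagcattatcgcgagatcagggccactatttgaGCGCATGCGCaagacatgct
RPL5: gctacatactGCGCCTGCGCaagggctgtg
RPL37A: gcctaataccGCGCCTGCGCaccgcgtctc
RPL26L1: atgtctttctGCGCTTGCGCggcacggaaa
RPS29: aatttgaagaGCGCATGCGTgggccagctt
RPS10: acgcagcaccGCGCATGCTCcttcctttcc
RPS15: cgcgataactGCGCAGGCGCggaccaaagc
RPS9: cgcagccgtgGCGCTTGCGCgcctctttct
RPS16: agtgctcaagGCGCCTGCGCagaccctgaa
RPS12: gggtgggagtGCACATGCGCacaggggacc
RPLP1: caggcgcagtGCGCAGGCGCcttcagtggg
RPL13A: gggaatctctGCGCACGCGCagaacgcttc

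In the order printed after RPL10A, these 30-base stretches lie on hg19 at chr1:93297565-93297594, chr2:217363534-217363563, chr5:172386394-172386423, chr14:50053099-50053128, chr6:34393840-34393869, chr19:1438371-1438400, chr19:54704704-54704733, chr19:39926616-39926645, chr6:133135639-133135668, chr15:69745046-69745075 and chr19:49990737-49990766. RPS29, RPS10 and RPS16 lie on the minus strand and the other genes shown on the plus strand.

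Most ribosomal protein genes carried an NRF-1 peak at their promoter in both conditions. Promoters were taken as 1 kb to each side of every annotated start of a coding transcript, and an overlap of 1 base counted. In siControl 76 of the 89 genes (85.4%) had a promoter peak, against 61.2% of all coding genes. The siAATF list also gave 76 genes (85.4%), beside 60.8% of coding genes at large. Of these, 74 genes had a promoter peak in both lists, where 59.6% of all coding genes did.

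The share of marked genes was thus above that of coding genes as a whole, a description that was not tested, and the number marked was equal in the 2 lists. The standard ribosomal proteins stood at 69 of 77 genes (89.6%) in either list, and the paralogs at 5 of 9. Both subunits were covered alike in siControl, with 29 of 34 RPS genes (85.3%) and 47 of 55 RPL genes (85.5%). In siAATF the counts were 30 RPS genes (88.2%) and 46 RPL genes (83.6%).

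The pattern was weaker when strong peaks alone were counted. MACS2, the program that called the peaks, gives each peak a −log10 q, the evidence that it stands above the local background. A −log10 q of 5 or more was reached at 57 of 89 promoters in siControl (64.0%) and at 58 in siAATF (65.2%). Coding genes at large reached it at 51.5% of promoters in siControl and 51.5% in siAATF. Among genes that had a promoter peak at all, 75.0% of the ribosomal protein genes passed this limit in siControl and 76.3% in siAATF, below the 84.2% and 84.8% of all coding genes with a peak. At this limit 55 genes were marked in both lists, RPL3 and RPL38 in siControl alone, and RPL24, RPL35A and RPL36AL in siAATF alone.

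**Figure D1:**
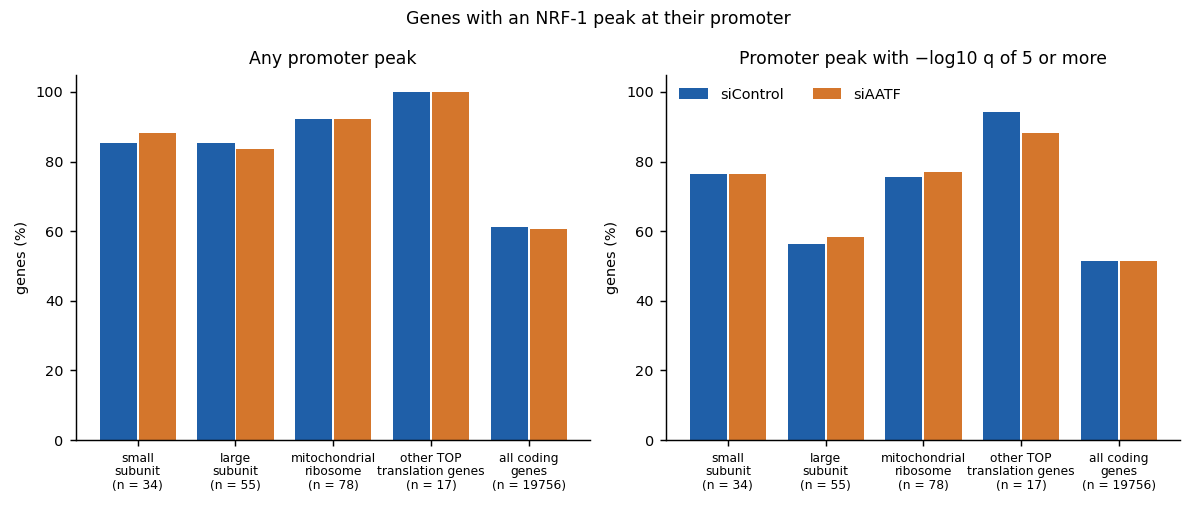
Percentage of genes with a promoter peak (left) and with a promoter peak of −log10 q 5 or more (right). Groups are both subunits of the cytosolic ribosome, the mitochondrial ribosome, other genes with TOP messages (most of them translation genes) and all coding genes. Bars start at 0, blue is siControl and orange siAATF, with 1 list per condition and no error bars. The RPS genes stay at 76.5% in both lists on the right, whereas the RPL genes drop to 56.4% and 58.2%.

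The subunits differed in the strength of their peaks. Peaks of the RPS genes had a median −log10 q of 24.1 in siControl and 16.9 in siAATF. For the RPL genes the medians were 8.56 and 8.51, and for all coding genes with a promoter peak they were 18.0 and 17.4. The limit of 5 was passed by 26 of 34 RPS genes in both lists, and by 31 RPL genes in siControl and 32 in siAATF.

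Fold enrichment over the local background is relative to each library, so it was turned into a percentile rank within its own list, from 0 for the weakest peak to 100 for the strongest. The median rank of the ribosomal protein promoters was 56.4 in siControl (0.666 to 98.6) and 59.2 in siAATF (0.715 to 97.6). For coding genes at large with a peak the median ranks were 63.4 and 64.4. The RPS genes lay above that level with 72.1 and 70.0, and the RPL genes below it with 48.8 and 46.9. These medians are a description of 1 list each, and the difference between the subunits was not tested.

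Among the strongest promoter peaks by −log10 q were those of RPL13A, RPL14, RPL36 and RPL8. RPL13A, a large subunit protein that also takes part in the silencing of inflammatory messages, had a −log10 q of 81.6 in siControl and 70.6 in siAATF, on a peak at chr19:49990233-49991189 in siControl. RPL14, a large subunit protein, had 80.3 and 64.7, and RPL36, another large subunit protein, had 72.5 and 65.7. The peaks of all 3 genes spanned the annotated start in both lists.

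RPL8, which lies near the peptidyl transferase centre, had a −log10 q of 67.0 in siControl and 54.9 in siAATF. Its peak was also long, 1446 bp in siControl against a median of 791.5 bp for the ribosomal protein promoters, and its rank by fold was only 48.8. This peak of moderate height stood high by −log10 q and in the middle by fold enrichment. Whether its length had a part in that was not tested.

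By fold enrichment the leading genes over both lists were RPS12, RPS13, RPL34, RPL7L1 and RPS27A. RPS12, a small subunit protein, had a fold of 10.1 (rank 98.0) in siControl and of 9.40 (rank 97.6) in siAATF. RPS13, a small subunit protein, had 10.3 (rank 98.6) and 9.04 (rank 95.8). RPS27A, which is made as a fusion with ubiquitin, had 10.2 (rank 98.2) and 8.70 (rank 93.3).

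By fold, these 3 RPS promoters ranked among the strongest peaks of either list. By −log10 q their ranks in siControl and siAATF were lower. They were 88.5 and 88.1 for RPS12, 81.3 and 79.5 for RPS13, and 78.2 and 76.6 for RPS27A. RPL34 stood at ranks 96.2 and 96.5 by fold. RPL7L1, a paralog of RPL7 with a part in ribosome assembly, stood at 95.9 and 95.7 by fold.

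At the other end, RPL28, a large subunit protein, was at rank 0.666 in siControl and 0.715 in siAATF with a fold of 2.54 and 2.58. RPLP2 had ranks of 4.39 and 5.35, RPL12 of 4.20 and 17.5, and RPL36A of 10.5 and 16.3. Of these genes, RPL28, RPL12 and RPL36A had a −log10 q below 5 in both lists. The long, low peak of RPLP2 had 8.92 and 8.94.

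The genes of the ribosomal stalk, which recruits translation factors, differed in the strength of their peaks. RPLP0, its base, had a −log10 q of 22.1 in siControl and 13.2 in siAATF. RPLP1 had 36.9 and 38.9, and RPLP2 had the values just given. RPLP1 was the only stalk gene with an NRF-1 core, up to 1 mismatch, in its peak.

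Further genes are given here for their known part in adhesion, disease or growth control. RPSA, the laminin receptor precursor, had a −log10 q of 9.73 in siControl and 9.83 in siAATF. RPS19, the classic gene of Diamond-Blackfan anaemia, had 5.67 and 5.84. RPL5, which with RPL11 and ribosomal RNA restrains MDM2, had 65.7 and 59.0, whereas RPL11 had no promoter peak in either list.

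Of 22 genes linked to Diamond-Blackfan anaemia, an inherited failure of red cell production, 19 had a promoter peak in both lists (86.4%). The share was 83.1% for all the ribosomal protein genes and 59.6% for all coding genes. The other 3 anaemia genes, RPL11 and RPS7 among them, had one in neither list. The peaks of the anaemia genes had a median −log10 q of 8.17 in siControl and 8.21 in siAATF. The limit of 5 was reached by 14 of the 22 genes in siControl (63.6%) and 15 in siAATF (68.2%). These shares were near the 64.0% and 65.2% of all the ribosomal protein genes, with 51.5% of all coding genes in each list.

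**Figure D2:**
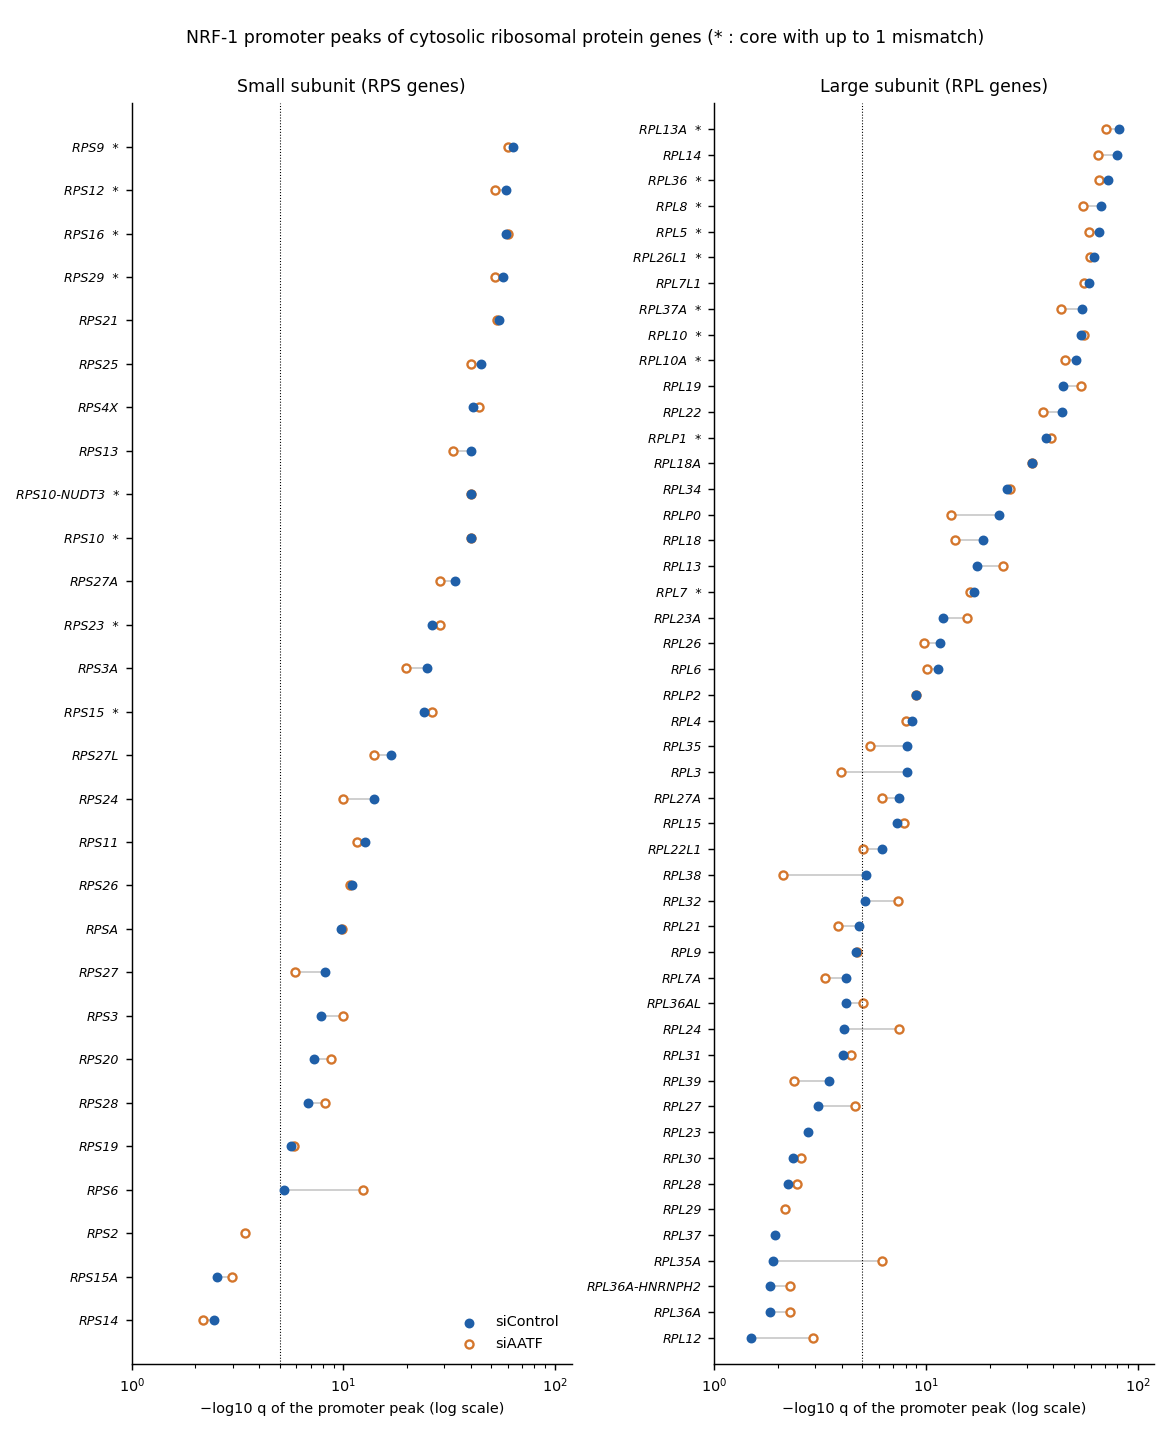
−log10 q (log scale) of the promoter peaks of ribosomal protein genes with a peak in at least 1 list, RPS genes on the left and RPL genes on the right. Filled blue points are siControl, open orange points siAATF, grey lines join the lists, the dotted line is 5, and an asterisk marks genes with the NRF-1 core (up to 1 mismatch) in the siControl peak. Genes with an asterisk crowd the top of both panels, where RPL7 with 16.8 is the lowest.

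The exact core was rare and the core with 1 mismatch was not. The exact word lay in the promoter peaks of 2 of 76 genes (2.63%) in both lists, and RPL10A was one of them. Among coding genes with a peak at the promoter, 4.01% held it in siControl and 4.04% in siAATF. With up to 1 mismatch the core was found for 19 genes (25.0%) in either list, and they were the same genes. The share of all coding genes was 24.4% in siControl and 24.6% in siAATF. The ribosomal protein genes thus held the core about as often as coding genes with a promoter peak in general. A control palindrome with the same bases and the same number of CpG steps lay, with up to 1 mismatch, in the peaks of 2 ribosomal protein genes (2.63%) in each list. It was in those of 5.30% of all coding genes in siControl and 5.31% in siAATF. RPS10 and its read-through gene RPS10-NUDT3 share 1 peak and 1 match, so that the 19 genes stand for 18 promoters.

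Peaks with the core were the strong ones. In siControl the 19 genes with the core had a median −log10 q of 56.6 (16.8 to 81.6) and the 57 without it 7.88 (1.48 to 80.3). In siAATF the medians were 52.2 and 8.08. All coding genes showed the same order, with 65.6 against 12.2 in siControl and 59.7 against 11.9 in siAATF. A −log10 q of 20 or more was reached by 18 of the 19 genes with the core in both lists, and by 13 of the 57 without it in siControl and 12 in siAATF.

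The core thus marked most but not all of the strong promoters. Of 31 ribosomal protein genes at or above 20 in siControl, 18 held the core (58.1%), against 48.5% of all coding genes in that class. Between 5 and 20 it was 1 of 26 genes, RPL7, and below 5 it was 0 of 19. A longer peak has more room for a word, and the median width was 999 bp with the core and 667 bp without it in siControl. The part of width in this difference was not tested.

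Several strong promoters had no core within 1 mismatch. The nearest words in the siControl peaks of RPL14 and RPS13, shown with those bases in capitals, had 2 and 3 mismatches. They lie at chr3:40498789-40498818 (plus strand) and chr11:17099164-17099193 (minus strand).
RPL14: gcgttcttctACACATGCGCagggttgggc
RPS13: ccatcatgggTCGCATGCATgctcccgggt

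RPL14 had the highest −log10 q of any ribosomal protein gene without the core. RPS21, a small subunit protein, had 54.1 in siControl and 53.4 in siAATF without it. RPL7L1 had 59.0 and 56.0, and RPL19, a large subunit protein, had 44.4 and 53.9.

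The core lay close to the start of transcription. Measured from the centre of the best match to the canonical start, the median was −18.5 bp for the 19 genes, where negative is upstream. For 2951 coding genes with the core in a siControl promoter peak it was −63.5 bp. The centre lay within 50 bp upstream of the start in 11 of 19 genes (57.9%), against 21.96% of all coding genes, and within 100 bp upstream in 13 (68.4%), against 36.5%. The siAATF list gave the same positions for the 19 genes.

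The core of RPL10A ended 11 bases before the start, as did that of RPS29, and that of RPL5 ended 13 bases before it. In RPS10, RPS15 and RPS9 it ended 4, 5 and 3 bases before the start, so that it nearly touched the transcript. The matches of RPL10 and RPL36 lay farther up, more than 100 bases before the start. RPS23 was the only RPS gene whose best match was centred more than 200 bp from the start, at −292.5 bp.

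**Figure D3:**
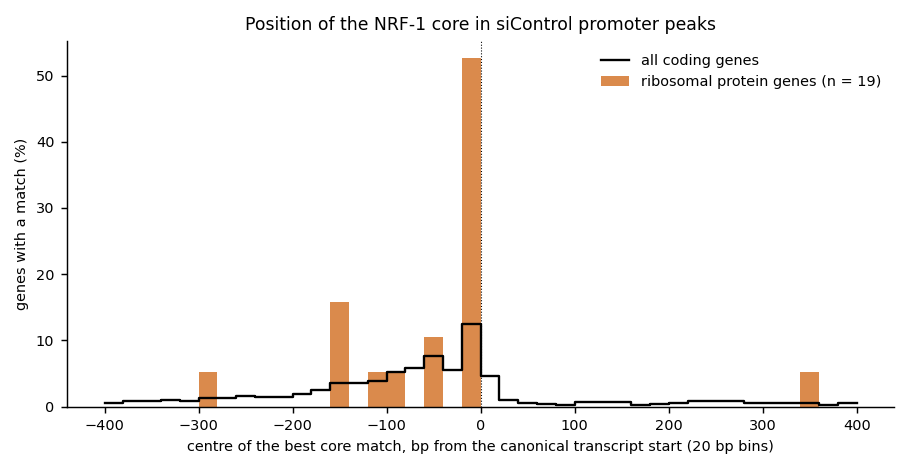
Position of the best core match (up to 1 mismatch) in siControl promoter peaks, as the percentage of genes with a match in each 20 bp bin from the canonical start, negative being upstream. Orange bars are the 19 ribosomal protein genes and the black line all coding genes. The bin just before the start holds 52.6% of the ribosomal protein genes and 12.4% of all coding genes.

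The peaks themselves sat on the start. The canonical start lay inside the promoter peak in 67 of 76 genes (88.2%) in siControl and in 72 (94.7%) in siAATF, against 83.4% and 84.5% of all coding genes with a promoter peak. The midpoint of the peak was a median of 67 bp upstream of the start in siControl and 73.5 bp in siAATF. The peaks of RPL26, RPL35A, RPL4 and RPL6 missed the canonical start in both lists. The nearest edge of the RPL6 peak lay at −9112 bp in siControl, over the start of PTPN11, and its place as a promoter peak came from an alternative start of RPL6.

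**Figure D4:**
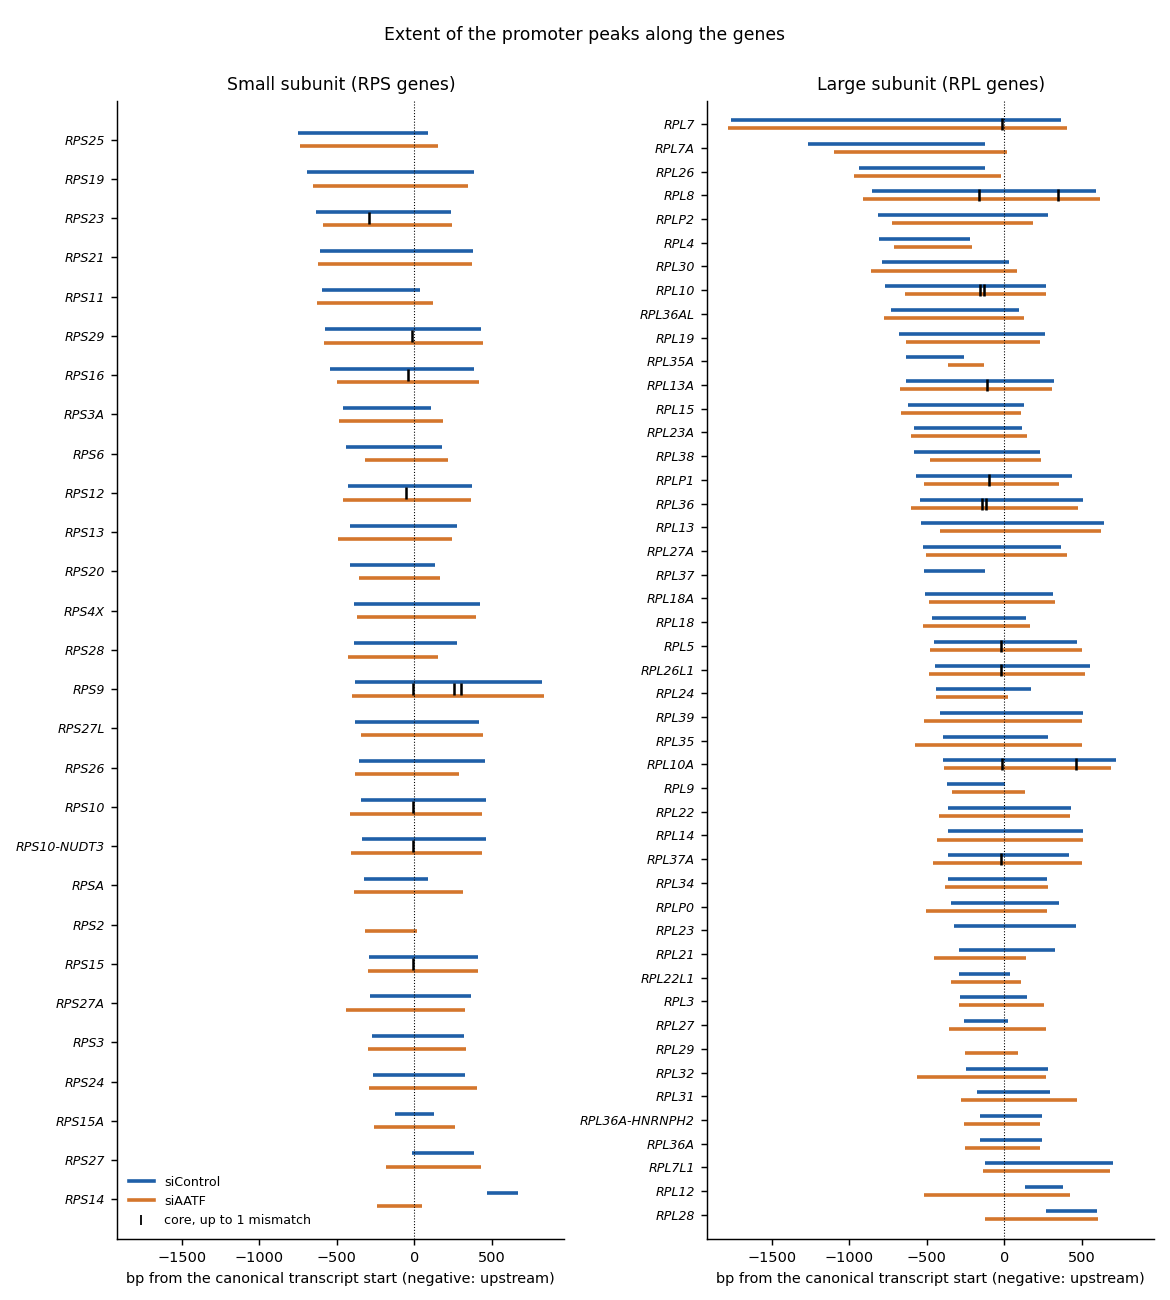
Extent of the promoter peaks along the genes in bp from the canonical start (dotted line, negative is upstream), RPS genes on the left and RPL genes on the right. Blue lines are siControl, orange lines siAATF, and black ticks the core with up to 1 mismatch in the siControl peak. RPL6, whose peak lies over 9 kb upstream, is not drawn, and RPS14 is the gene whose lines do not overlap.

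Of the 74 genes with a promoter peak in both lists, 73 had overlapping peaks, and a median of 97.8% of the siControl peak was covered. RPS14, a small subunit protein lost with chromosome arm 5q in a myelodysplastic syndrome, was the exception. It had a weak peak 470 to 669 bp downstream of its start in siControl (−log10 q 2.46) and a weak peak over its start in siAATF (−log10 q 2.17). Both peaks fell below the limit of 5.

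Some peaks cannot be assigned to the ribosomal protein gene alone, since the start of another coding gene lay inside them. This was so for 15 genes in siControl (19.7%, against 21.9% of all coding genes with a promoter peak) and 18 in siAATF (23.7%, against 22.3%), shares near those of coding genes at large. Examples are RPS16 with SUPT5H, RPS27A with CLHC1, RPL15 with NKIRAS1, RPL9 with LIAS, RPS25 with TRAPPC4 and RPL35A with IQCG. Their median −log10 q was 8.17 in siControl, against 14.0 for the 61 genes with no other start in the peak, and 7.02 against 14.9 in siAATF. All coding genes had the opposite order, with 23.6 against 16.8 in siControl and 23.1 against 16.2 in siAATF. Which of the genes the peak belongs to was not tested.

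The question put to the comparison of conditions was whether NRF-1 occupancy at these promoters moves when AATF is depleted. The rank of the ribosomal protein promoters in the siAATF list was close to that in the siControl list for most genes. Over the 74 genes in both lists the median change in rank was −0.20 points (−26.7 to 43.9), with 38 genes lower and 36 higher in siAATF. For all 11773 coding genes in both lists it was 0.16 points. A change of at most 10 points either way was seen in 59 of the 74 genes (79.7%), against 73.9% of all coding genes.

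Ranking by −log10 q turned the sign of the median, which became 1.47 points, with 29 genes lower and 45 higher. The median of all coding genes was then 0.47 points. No direction can therefore be given for the ribosomal protein genes as a group.

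A rise of more than 20 points was seen in 3 genes (4.05%), against 3.64% of all coding genes, and a fall of more than 20 points in 2 genes (2.70%), against 2.90%. These shares were near those of coding genes at large. The genes that moved so far were RPL35A, RPS6 and RPL24 upward and RPL38 and RPL3 downward.

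RPL35A, a large subunit protein mutated in some cases of Diamond-Blackfan anaemia, had a fold of 3.61 (rank 9.11) and a −log10 q of 1.89 in siControl. In siAATF it had a fold of 5.76 (rank 53.0) and a −log10 q of 6.18. The change of 43.9 points was the largest of the ribosomal protein genes. Both peaks were short, 372 bp and 233 bp, and overlapped in part upstream of the start, where IQCG also begins.

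RPS6, the small subunit protein that is phosphorylated in response to growth signals, had a fold of 5.22 (rank 40.9) and a −log10 q of 5.25 in siControl. In siAATF it had a fold of 7.49 (rank 78.8) and a −log10 q of 12.4. Its peaks covered the start in both lists, from −439 to 182 bp around it in siControl and from −321 to 218 bp in siAATF. RPL24, a protein at the interface of the subunits, went from rank 34.8 to 59.6 and from a −log10 q of 4.07 to 7.45.

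RPL38, a large subunit protein known for its part in the translation of Hox messages in the mouse, had a fold of 4.80 (rank 33.6) and a −log10 q of 5.20 in siControl. In siAATF it had a fold of 3.47 (rank 6.86) and a −log10 q of 2.11. RPL3, which reaches into the peptidyl transferase centre, went from a fold of 5.87 (rank 50.7) to 4.40 (rank 28.0) and from a −log10 q of 8.15 to 3.97.

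Next in order came smaller shifts. RPL13 rose by 15.1 points and RPL12 by 13.3, while RPS27 fell by 18.5 points, RPLP0 fell by 18.0 and RPL18 fell by 15.6. None of the 5 genes with a shift of more than 20 points had a −log10 q of 20 or more in either list, and none held the core with up to 1 mismatch. With 1 list per condition, a shift of this size in a weak peak and the noise of peak calling cannot be told apart.

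Shifts were smaller at the strongest peaks. Genes with a −log10 q of 20 or more in siControl moved by a median of 2.79 points in either direction, those between 5 and 20 by 7.50 and those below 5 by 6.42. The medians of all coding genes in these classes were 3.44, 7.25 and 8.98 points, so the weakest ribosomal protein peaks did not continue the order seen there. The 19 genes with the core moved by −7.42 to 10.4 points.

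**Figure D5:**
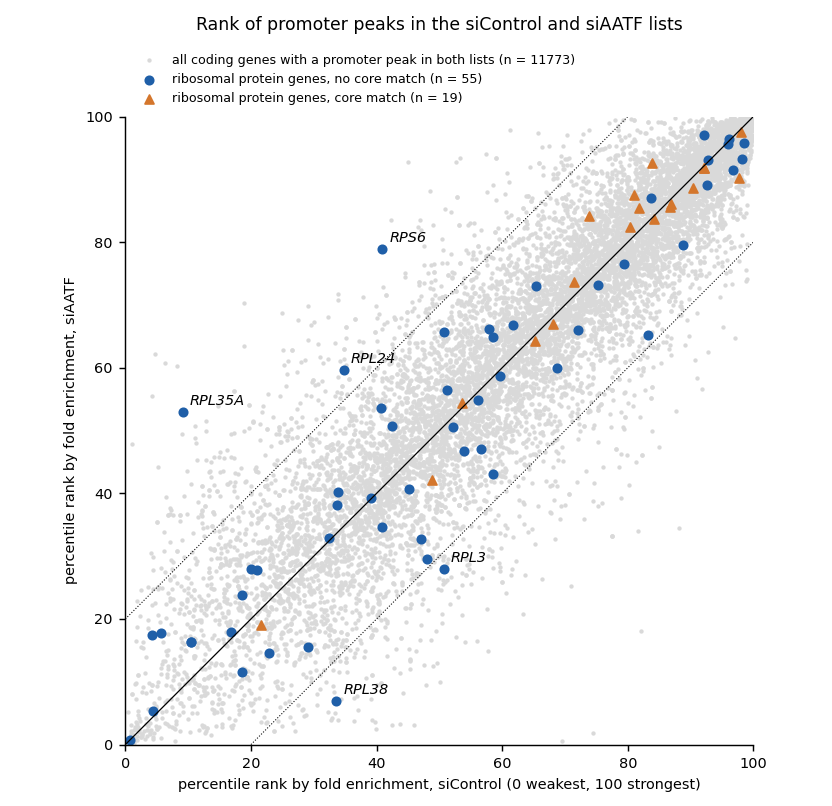
Percentile rank by fold enrichment of promoter peaks in siControl (x axis) and siAATF (y axis), for 11773 coding genes (grey) and for ribosomal protein genes with the core (orange triangles, 19 genes) and without it (blue points, 55 genes). The solid line is equal rank and the dotted lines lie 20 points either side. RPL35A, RPS6 and RPL24 lie above the upper line and RPL38 and RPL3 below the lower line.

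A promoter peak in only 1 list was seen for 4 genes, and all 4 peaks were weak. In siControl alone it was 2 of 89 genes (2.25%), against 1.62% of all coding genes, and in siAATF alone it was also 2 (2.25%), against 1.17%. RPL23, a large subunit protein that binds MDM2, had a peak in siControl alone with a −log10 q of 2.76 (rank 20.8). RPL37, a large subunit protein, also had one in siControl alone with 1.93 (rank 11.3). RPL29 and RPS2, which lines the messenger entry site, had one in siAATF alone with 2.16 (rank 11.9) and 3.42 (rank 6.77). None of these peaks reached 5, and whether the other list lacks signal there or falls just below its threshold cannot be told from peak lists.

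No promoter peak was found in either list for 11 genes. They were 6 standard ribosomal proteins (among them RPL11, RPL17, RPL41, RPS7 and RPS18), 4 paralogs (RPL3L, RPL10L, RPL39L and RPSA2) and the read-through gene RPL17-C18orf32. RPL3L is known from muscle and RPL10L from testis. Measured from the nearest coding start of the gene, the closest siControl peak lay 1.29 kb from RPL41, 16.6 kb from RPS7 and 50.9 kb from RPL11. The peak closest to RPL17, at 4.22 kb in siControl and 4.24 kb in siAATF, was the promoter peak of the neighbouring gene C18orf32 (rank 98.8 and 97.7).

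The TOP motif of such genes was present all the same. The 30 bases around the annotated start are shown here for RPL11, RPS7 and RPL41, which had no peak, beside RPS6, RPLP0 and RPL13A, which had, with the pyrimidine run in capitals.
RPL11: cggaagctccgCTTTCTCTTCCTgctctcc
RPS7: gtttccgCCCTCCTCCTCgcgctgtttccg
RPL41: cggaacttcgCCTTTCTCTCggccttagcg
RPS6: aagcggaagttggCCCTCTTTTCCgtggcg
RPLP0: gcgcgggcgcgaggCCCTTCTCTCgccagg
RPL13A: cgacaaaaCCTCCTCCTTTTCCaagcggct

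These stretches are chr1:24018281-24018310, chr2:3622835-3622864, chr12:56510402-56510431, chr9:19380220-19380249, chr12:120638900-120638929 and chr19:49990850-49990879 on hg19. RPS6 and RPLP0 lie on the minus strand. A TOP-like run, that is 5 or more pyrimidines from a C that hold the start or begin within 5 bases of it, was found in 71 of the 89 genes (79.8%) and in 19.9% of 19478 coding genes with a canonical start. The promoter peaks of genes with such a run had a median −log10 q of 11.5 in siControl, and those of genes without it 14.5.

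RPS18, which had no peak, lies at the edge of the major histocompatibility complex. In the 1 Mb before its start neither list held a peak, and 0 of 28 coding genes there had a promoter peak. In a stretch 1 to 2 Mb after it, 11 of 13 genes had one in siControl and 10 in siAATF. Genes in the first 1 Mb after the start were not counted. The peak nearest to RPS18 lay there, 138 kb from the start in both lists, with a −log10 q of 6.68 in siControl and 5.32 in siAATF. The lists also held 16 and 18 peaks on alternative haplotypes of chromosome 6, so the reference used by the authors has further copies of that region. Whether reads were lost to these copies was not tested.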

How the data were processed

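NRF-1 ChIPmentation, in which Tn5 transposase adds adapters to immunoprecipitated chromatin, was done in U251 cells with siControl or siAATF, 1 peak list per condition. The series' design text names U138, and the sample labels were followed. Per the study's methods, paired-end reads were placed on hg19 by Bowtie2, and MACS2 called peaks in an ATAC-seq pipeline left at its default settings. No input library is named. The experiment is described as duplicate while labels give replicate 1, and pooling is not stated. Read depth is unknown.

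Peak starts and ends, fold enrichment (a ratio), −log10 p and −log10 q are the values deposited by the authors in MACS2 broadPeak lists. Fold was compared between lists by percentile rank only. A gene's peak was the promoter peak with the highest fold. The columns hold no comparison of conditions. An ATAC-seq pipeline may shift reads, which would move peak edges.

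Genes came from GENCODE release 44 on GRCh37, sequence from GRCh37, both by chromosome name. Python 3.11.15, numpy 2.4.6, pandas 2.3.3, scipy 1.17.1, pysam 0.24.0, samtools 1.23.1 and matplotlib 3.10.9 were used. Scripts were tested on simulated data. Members and lists were chosen with earlier results of these data known. Genes named were those with a peak in 1 list or neither, the 5 highest and lowest mean ranks, the 5 largest rises and falls, those with the exact core, the 5 highest −log10 q, the stalk, RPSA, RPS27A, RPS6, RPS19, RPL5, RPL11, FAU and RACK1. Some genes that these rules take are not reported here or drawn by name, and they stay in all counts and medians. Others were named as examples after their values were seen. Sequences of chromosome 8 genes are not shown. Alternatives were a −log10 q limit of 5, promoters of 500 bp or 2 kb, canonical starts, peak midpoints, no paralogs or read-through genes, ranking or picking peaks by −log10 q, ranks over chromosomes 1 to 22 and X, and other readings of the core.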

Additional observations from a re-analysis of the deposited data

How the results depend on the processing

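The number of ribosomal protein genes with a promoter peak ranged from 57 to 78 in siControl, from 58 to 78 in siAATF and from 55 to 76 in both lists over 6 alternatives each, always within 1.5 times the reported count. The median rank ranged from 53.9 to 56.6 in siControl and from 50.4 to 59.6 in siAATF over 9 alternatives. These values lay within the 95% intervals of the reported medians, 47.1 to 68.7 in siControl and 46.8 to 66.9 in siAATF. The intervals are wide and were taken over the genes of 1 list, so they do not measure a spread between replicates. The median change in rank turned from −0.20 to 1.47 points when peaks were ranked by −log10 q, and stayed between −0.69 and −0.18 in the other 8 alternatives. The cause was not tested. The count with the core went from 2 to 19 in each list with up to 1 mismatch and to 0 within 100 bp of the peak midpoint, since each exact core lay farther than that from it. With C or T at position 6, an alternative added after the data were seen, it was 3. No paired analysis was possible because each condition has 1 list. Unknown depth limits what a missing weak peak means.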

Other observations

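Other genes with TOP messages were marked as well. Of 17 translation genes with TOP messages that the symbol rule does not take, all 17 had a promoter peak in both lists, with a median −log10 q of 51.4 in siControl and 49.5 in siAATF. Ribosomal proteins under other names are among the 17 genes. FAU, made as a fusion with a ubiquitin-like protein, had a −log10 q of 42.3 in siControl and 43.3 in siAATF, and RACK1, the scaffold on the small subunit, had 48.5 and 34.9. Both stood above the median of the ribosomal protein genes in both lists. EIF3F, a subunit of initiation factor eIF3, had the widest shift of the 17 genes, from rank 71.0 to rank 25.2.

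The mitochondrial ribosome, whose proteins are also coded in the nucleus, had a promoter peak at 72 of 78 genes (92.3%) in each list. For all coding genes the share was 61.2% in siControl and 60.8% in siAATF. The peaks of the mitochondrial ribosomal protein genes had a median −log10 q of 18.0 and 15.7 in siControl and siAATF. A match to the core within 1 mismatch was found for 17 of these genes in either list, 23.6% of those with a peak. This was near the 24.4% and 24.6% of all coding genes with a promoter peak. The median position of the match was −105.5 bp from the start, farther up than the −18.5 bp of the cytosolic genes.

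The 300 bases from 250 before to 50 after the canonical start were also searched on both strands for short words of other factors. The ETS word CCGGAAG was present in 34.8% of the ribosomal protein genes and in 14.1% of all coding genes, and the YY1 word AAGATGGCG in 10.1% and 2.87%. Neither word was particular to the cytosolic genes. The ETS word was in 41.0% of the mitochondrial ribosomal protein genes and in 17.6% of the other genes with TOP messages. The YY1 word was in 16.7% and 23.5% of these lists. The SP1 word GGGCGG was present in 60.7% and 61.8%, and TATAAA in 10.1% and 9.59%. Ribosomal protein genes with the ETS word and a promoter peak, 28 in number, had a median −log10 q of 24.4 in siControl, against 8.37 for the 48 without it. In siAATF the medians were 22.3 and 9.29. For the YY1 word the order was the other way, with 6.22 for 9 genes against 16.8 for 67 in siControl.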
